A study of Mus musculus with 4 samples.

Results

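The Hox genes of the Hoxa, Hoxb, Hoxc and Hoxd clusters were examined in mouse brain tissue taken from the thalamus and hypothalamus, both parts of the diencephalon. A gene was a member if its symbol began with Hoxa, Hoxb, Hoxc or Hoxd followed by a paralog number and a probe for it lay on the array; antisense transcripts were left out. Of 18350 genes with a named probe, 36 were members, and they were read by 46 probes. RefSeq lists 39 such genes in mouse, and the other 3, Hoxc4, Hoxc6 and Hoxc11, had no probe that could be named. The rule used no measured value.

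Total RNA was hybridised to 1-colour (Cy3) Agilent arrays, with 1 array for each of 4 samples. The 2 dark-reared samples came from mice whose dams were moved into a light-proof covered cage 1 to 4 days before giving birth, tended under dim red light and kept dark until postnatal day 14. The 2 control samples came from mice of the same age in standard cages with 12 h of light per day. The labels call the samples of a group biological replicates and do not say how many animals each held, and strain and sex are not given in the sources used here.

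Hox genes encode homeodomain transcription factors. Within a cluster the genes lie in order of their paralog number, and in the embryo low numbers come on further forward along the body axis than high ones. In the mouse central nervous system their transcripts mark the hindbrain and spinal cord, where they set rhombomere and motor neuron identity, whereas the forebrain and midbrain develop ahead of the forward limit of the clusters. Polycomb complexes keep the clusters silent where they are not used, Trithorax and MLL complexes keep them open where they are, and Hox proteins bind DNA together with the TALE homeodomain proteins of the Pbx, Meis and Pknox families.

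The tissue carried the markers that its label calls for. All 10 thalamus markers were well above background on all 4 arrays, among them Tcf7l2, a transcription factor of thalamic neurons. Of 15 hypothalamus markers, 11 were above background on all 4 arrays, while the transcription factor genes Otp and Sim1 were above it on none. The arrays differed in these and other markers. The summed linear signal of the thalamus markers, relative to the 75th percentile of each array, was 8.40 and 29.2 in dark-reared 1 and 2, against 50.3 and 13.6 in control 1 and 2. The same sum over the hypothalamus markers was 33.4 and 50.8 in dark-reared 1 and 2, against 80.3 and 50.03 in control 1 and 2. The hypothalamic hormone gene Oxt, which encodes oxytocin, had log2 values of -3.31 and 2.50 in dark-reared 1 and 2, against 3.97 and 2.38 in control 1 and 2. The summed linear signal of 5 choroid plexus markers was 18.1 and 10.74 in dark-reared 1 and 2, against 16.2 and 2.58 in control 1 and 2. Dark-reared 1 was thus lowest in thalamus and hypothalamus markers, with control 2 next for the thalamus, and control 2 was lowest in choroid plexus markers. Of 9 measured markers of hindbrain and spinal cord neurons, 3 were above background on each array. These were not the same 3 everywhere: the transcription factor gene Fev and the noradrenaline enzyme gene Dbh were above it on all 4 arrays, Tph2 and Prph on 2 each, and the other 5, such as Isl2, Slc6a2 and Slc6a4, on none. The summed linear signal of this list was 0.272 and 0.326 in the dark-reared samples, against 0.350 and 0.360 in the control samples. Of markers of other parts and cell types, 5 of 9 cerebellar, 4 of 6 midbrain, 8 of 8 meningeal, 7 of 7 vascular, 4 of 5 blood and 5 of 5 choroid plexus genes were above background on all 4 arrays. Whether the composition of the pieces of tissue bears on the Hox values was not tested, and in bulk tissue fewer cells of a type and less RNA per cell cannot be told apart.

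Most Hox genes were not detected. A probe was called detected where the scanner software marked it well above background, and a gene where at least 1 of its probes was. By that measure 28 of the 36 Hox genes (77.8%) were above background on none of the 4 arrays, 3 on 1 array, 3 on 3 arrays and 2 on all 4. Among all named genes, 16.5% were above background on none and 73.8% on all 4. Between 65.9% and 73.3% of all probes were well above background on an array, and the share of the Hox probes was 8.70% on each dark-reared array and 13.04% on each control array.

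Detection was scattered over the clusters and along them. In the Hoxa cluster 4 of 11 measured genes were above background on at least 1 array, namely Hoxa3, Hoxa6, Hoxa7 and Hoxa13. In the Hoxb cluster Hoxb6 alone was, of 10 measured genes. The Hoxc cluster had none of its 6 measured genes above background, with 3 of its 9 genes unmeasured. The Hoxd cluster had 3 of 9, namely Hoxd3, Hoxd9 and Hoxd12. By paralog number, 2 of 11 genes in groups 1 to 4 were above background on at least 1 array, 3 of 10 in groups 5 to 8 and 3 of 15 in groups 9 to 13. Group 2, which is among the most forward in the embryonic hindbrain, had neither of its 2 genes above background. In group 3, Hoxa3 and Hoxd3 were detected and Hoxb3 was not, and in group 6 both measured genes were. With at most 4 genes measured in a group, no trend along the paralog numbers was tested.

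**Figure D1:**
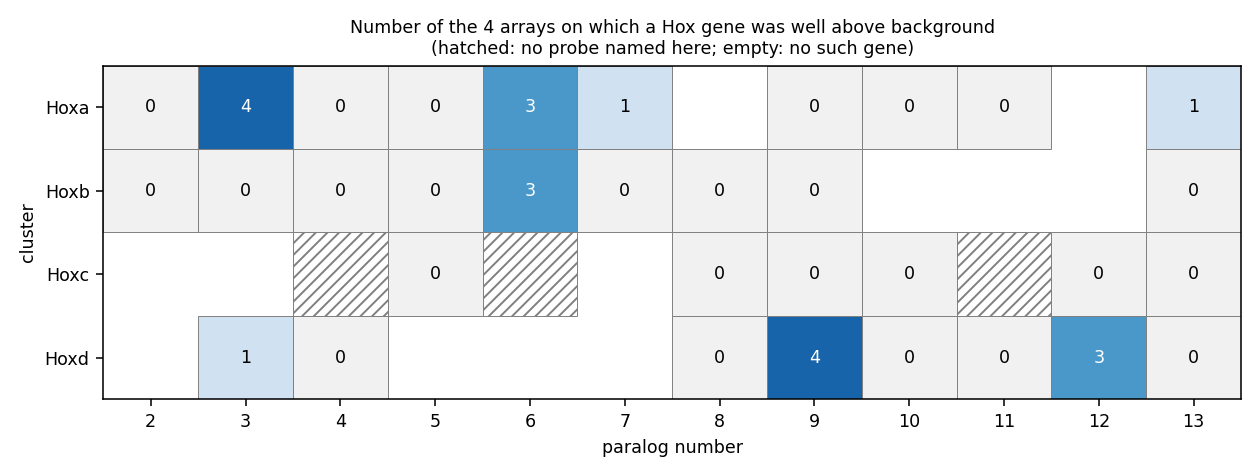
Each numbered square is a Hox gene, placed by its cluster (vertical axis) and paralog number from 2 to 13 (horizontal axis), and shows on how many of the 4 arrays the gene was well above background. Hoxa3 and Hoxd9 reached 4 arrays, Hoxa6, Hoxb6 and Hoxd12 reached 3, and most squares are at 0; hatched squares are the 3 genes with no named probe.

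The sequences around the start sites of Hoxa3 and Hoxd9 are shown because these were the Hox genes detected on all 4 arrays, and that of Hoxb1 because its probe was spotted 10 times on each array. They come from RefSeq, build GRCm38.p6, run from 250 bases before the start to 50 bases after it and are written 5′ to 3′ on the strand of the gene. Capitals mark CG dinucleotides in Hoxa3 (chr6:52213018-52213317, minus strand) and Hoxd9 (chr2:74697513-74697812, plus strand). In Hoxb1 (chr11:96365508-96365807, plus strand) they mark the match to TGATNNAT, a motif bound by Pbx and Hox proteins together. The Hoxa3 window lies between the windows of Hoxa6 and Hoxa7. Whether the detected Hoxa3 probe reads a transcript from this start was not tested.
Hoxa3: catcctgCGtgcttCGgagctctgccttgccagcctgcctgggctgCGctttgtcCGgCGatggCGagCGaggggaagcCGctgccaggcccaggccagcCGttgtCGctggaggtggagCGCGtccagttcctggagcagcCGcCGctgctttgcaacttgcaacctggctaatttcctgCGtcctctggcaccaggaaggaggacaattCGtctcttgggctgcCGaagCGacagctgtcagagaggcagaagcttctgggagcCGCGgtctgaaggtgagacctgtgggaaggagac
Hoxd9: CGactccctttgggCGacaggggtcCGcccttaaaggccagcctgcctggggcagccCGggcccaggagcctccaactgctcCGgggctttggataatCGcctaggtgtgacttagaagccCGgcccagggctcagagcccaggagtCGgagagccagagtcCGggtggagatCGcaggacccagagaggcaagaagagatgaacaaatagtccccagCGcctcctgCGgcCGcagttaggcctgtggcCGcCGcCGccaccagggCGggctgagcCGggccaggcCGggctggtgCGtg
Hoxb1: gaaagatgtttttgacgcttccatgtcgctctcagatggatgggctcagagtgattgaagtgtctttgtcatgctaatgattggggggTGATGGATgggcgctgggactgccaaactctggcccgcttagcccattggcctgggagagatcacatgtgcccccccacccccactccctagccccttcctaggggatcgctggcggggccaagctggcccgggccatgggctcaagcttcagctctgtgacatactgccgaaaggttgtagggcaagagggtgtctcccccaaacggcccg

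The windows of Hoxa3 and Hoxd9 each held 20 CG dinucleotides and that of Hoxb1 held 10, while the median over all 32851 windows of this length in the table was 7. Of the measured Hox genes, 21 had windows in the table, 23 in all, with a median of 15 and a range of 4 to 45. The 7 windows of detected genes had a median of 20 and a range of 9 to 45, and the 16 windows of undetected genes had a median of 13.5 and a range of 4 to 37, so the ranges overlapped. The motif TGATNNAT, read on both strands, occurred in 8.85% of all windows, in 4 of the 23 Hox windows (17.4%) and in 0 of the 7 windows of detected genes. These counts describe the letters in the windows and say nothing of which proteins were bound there.

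Hoxa3, which in the embryo patterns the posterior hindbrain and the pharyngeal arches, was above background on every array by the probe for NM_010452. Its log2 signal, relative to the 75th percentile of the array, was -1.95 and -1.68 in dark-reared 1 and 2, against -1.72 and -1.65 in control 1 and 2. Background-subtracted intensities of this probe were 198 and 227 in the dark-reared samples, against 239 and 239 in the control samples, in arbitrary scanner units. The 4 values lay close together and the groups overlapped. Its other probe, for the same accession, was detected on no array, with log2 values of -6.78 and -6.81 in the dark-reared samples and -6.91 and -6.07 in the control samples. In the RefSeq annotation the Hoxa3 gene model overlaps those of Hoxa4, Hoxa5, Hoxa6 and the antisense genes Hoxaas2 and Hoxaas3, so which transcript the brighter probe read was not settled here.

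Hoxd9, which in the embryo acts in lumbar motor columns and the limb, was the other gene above background on every array. Its log2 signal was -4.10 and -3.41 in dark-reared 1 and 2, against -3.95 and -3.43 in control 1 and 2, and the groups overlapped. The background-subtracted intensities were 48.1 and 72.7 in the dark-reared samples, against 50.3 and 71.6 in the control samples. Its other probe was detected on no array, with log2 values of -6.79 and -6.89 in the dark-reared samples and -7.03 and -6.22 in the control samples. No other gene model overlaps Hoxd9 in the RefSeq annotation. Of the 10 Hox genes with 2 probes, 4 had 1 probe above background on at least 1 array (Hoxa3, Hoxa13, Hoxd3 and Hoxd9), 6 had neither, and 0 had both. Hoxa6, Hoxa7, Hoxb6 and Hoxd12 were each read by a single probe, so no second probe tested their detection. In the RefSeq annotation the Hoxa6 gene model overlaps those of Hoxa3 and Hoxaas3, and the Hoxb6 model overlaps that of Hoxb5os. Which transcript the probes of Hoxa6 and Hoxb6 read was not settled here. No other gene model overlaps Hoxa7 or Hoxd12.

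Hoxa6, Hoxb6 and Hoxd12 were above background on 3 arrays, including both control arrays. Hoxa6 had log2 values of -5.21 and -2.87 in dark-reared 1 and 2, against -3.38 and -2.70 in control 1 and 2, and was not well above background in dark-reared 1. Hoxb6 had -4.14 and -5.75 in dark-reared 1 and 2, against -4.43 and -4.11 in control 1 and 2, and missed background in dark-reared 2. Hoxd12, which patterns the digits and the urogenital tract in the mouse embryo, had -4.47 and -5.11 in dark-reared 1 and 2, against -1.99 and -3.68 in control 1 and 2. It was not well above background in dark-reared 2, its groups did not overlap, and its value in control 1 was the high one. The dim array was thus dark-reared 1 for Hoxa6 and dark-reared 2 for Hoxb6 and Hoxd12.

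Hoxa7, Hoxa13 and Hoxd3 were each above background on a single array. The lowest log2 value that counted as well above background was -5.15 and -5.05 in dark-reared 1 and 2, and -5.20 and -4.45 in control 1 and 2. Hoxa7, a trunk gene that helps to pattern vertebrae, had -4.86 and -5.21 in the dark-reared samples, against -4.80 and -5.02 in the control samples, and passed in control 1 alone. Hoxa13, which acts in the limb and the urogenital tract, had -4.93 and -4.41 in the dark-reared samples, against -5.02 and -5.14 in the control samples, and passed in dark-reared 2 alone. The mark is set for each spot, and Hoxa7 and Hoxa13 missed it in dark-reared 1 at levels above the lowest that counted there. Hoxd3 had -5.84 and -7.14 in the dark-reared samples, against -5.41 and -4.11 in the control samples, and passed in control 2 alone. The antisense transcript Hoxd3os1, which overlaps Hoxd3 and was not counted as a member, was also above background in control 2 alone, with -5.50 and -7.03 in the dark-reared samples and -5.70 and -3.29 in the control samples.

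**Figure D2:**
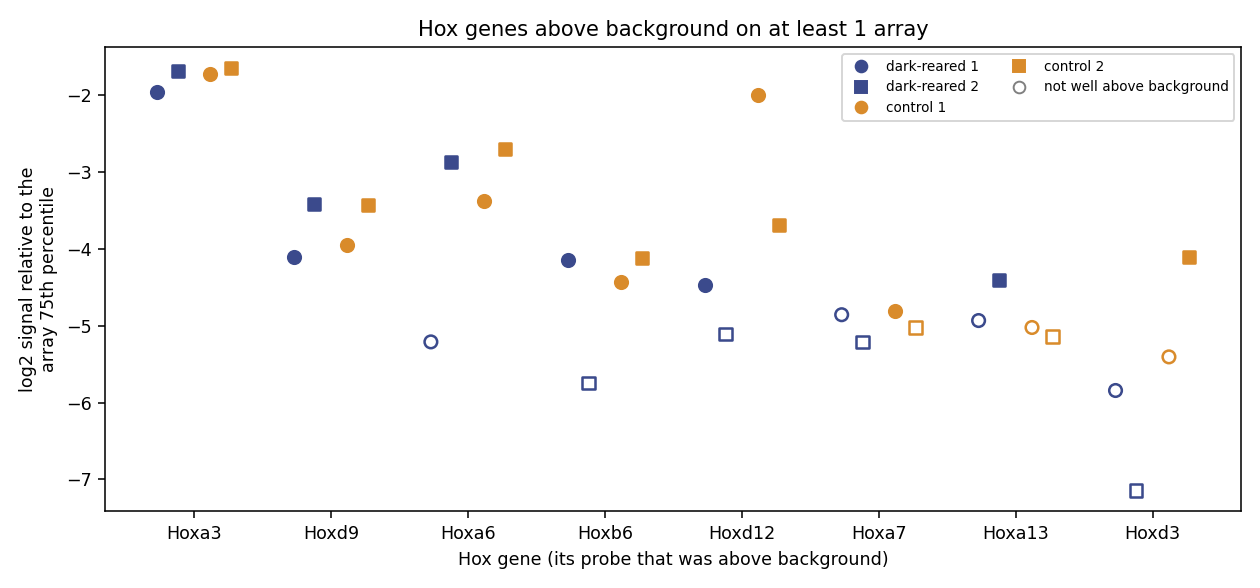
The vertical axis gives the log2 signal relative to the 75th percentile of the array for the detected probe of the 8 Hox genes above background on at least 1 array (horizontal axis), with dark-reared samples in blue left of control samples in orange. Open symbols were not well above background: Hoxa3 and Hoxd9 are filled on all 4 arrays, and Hoxd12 alone of the first 5 genes has both dark-reared values (-4.47 and -5.11) below both control values (-1.99 and -3.68). Levels of different genes rest on different probes and are not to be compared.

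Hoxb1, the gene of the fourth rhombomere that maintains its own transcription with Pbx, was measured most often. Of its 10 spots, 0 were well above background on any of the 4 arrays. The median background-subtracted intensity over its spots was -1.998 and 0.613 in dark-reared 1 and 2, against -0.782 and -5.28 in control 1 and 2, and the brightest spot reached 8.04 and 17.7 in the dark-reared samples, against 18.1 and 10.8 in the control samples. Its spots thus lay on both sides of zero on every array. By a laxer mark of the scanner software, which asks only whether a spot is positive and differs from its background, 3 and 3 of the 10 spots passed in the dark-reared samples, against 4 and 1 in the control samples.

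Other undetected members stood near the bottom of the scale. Hoxa2, which specifies the second pharyngeal arch and the anterior hindbrain, had log2 values of -7.31 and -7.19 in the dark-reared samples, against -7.43 and -6.63 in the control samples. Hoxa5, a gene of the cervical spinal cord and the lung, had -7.34 and -7.26 in the dark-reared samples, against -7.39 and -6.64 in the control samples. Hoxd1 had -6.90 and -7.00 in the dark-reared samples, against -7.14 and -6.33 in the control samples. Hoxb13, a gene of the tail end of the axis, had -7.46 and -7.32 in the dark-reared samples, against -7.49 and -6.75 in the control samples. At these levels a log2 value reads the floor of its array, so the arrays are not ranked by it. The background-subtracted intensities of Hoxa2 were 0.706 and -2.26 in the dark-reared samples, against -1.52 and -2.19 in the control samples, and those of Hoxb13 were -3.06 and 2.65 in the dark-reared samples, against -1.94 and -7.38 in the control samples. The median log2 value over all Hox probes that were not well above background was -7.07 in each dark-reared sample, against -7.18 and -6.50 in the control samples, and the lowest log2 value that counted as well above background was likewise highest in control 2.

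The intensities of the Hox probes were set against the negative control spots, which carry no mouse sequence. Each array had 153 such spots, of which 1 and 0 were marked well above background in dark-reared 1 and 2, and 2 and 3 in control 1 and 2. The 95th percentile of their background-subtracted intensity was 6.22 and 6.41 in the dark-reared samples and 9.32 and 14.5 in the control samples. Of the 46 Hox probes, 32 and 34 lay at or below it in the dark-reared samples, against 28 and 34 in the control samples. The brightest negative control spot was exceeded by 1 and 4 Hox probes in the dark-reared samples, against 4 and 2 in the control samples. The median Hox probe was nevertheless above the median negative control spot on every array: it stood at 0.0943 and -0.357 in the dark-reared samples, against 0.669 and -2.32 in the control samples, and the negative control medians were -8.20 and -8.62 in the dark-reared samples and -6.97 and -8.66 in the control samples. No level of a Hox transcript below these intensities could be told from background, so undetected members are not shown to be absent.

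**Figure D3:**
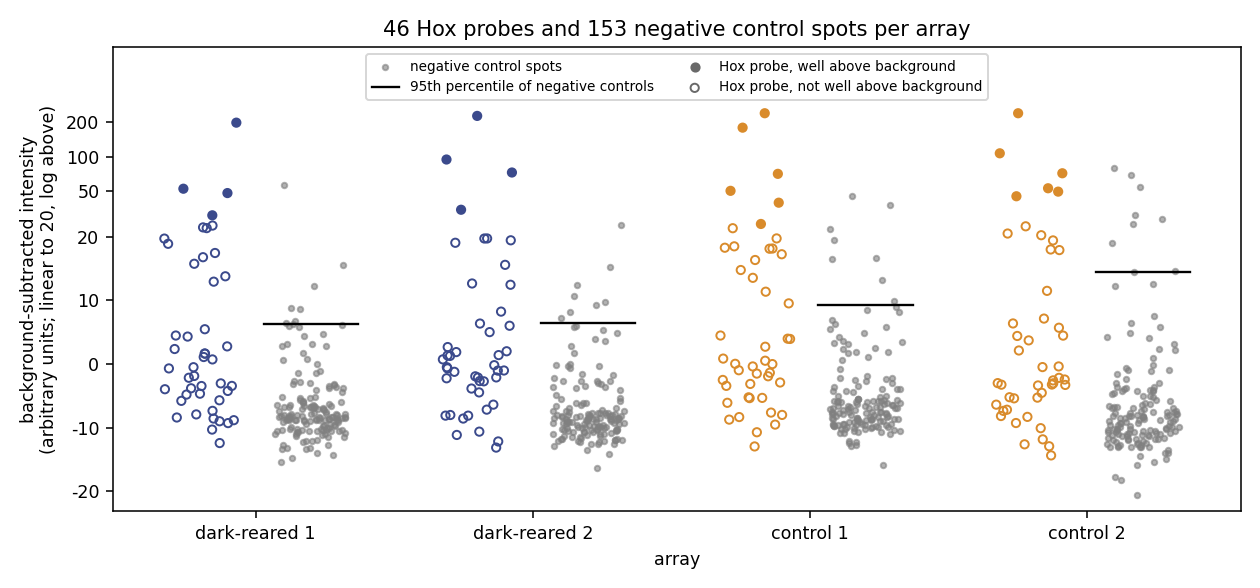
Background-subtracted intensity (vertical axis, linear to 20 and logarithmic above) of the 46 Hox probes in colour and the 153 negative control spots in grey on each array (horizontal axis). Filled points are Hox probes well above background, 4 on each dark-reared array and 6 on each control array, and the black line is the 95th percentile of the negative control spots, which 28 to 34 of the 46 Hox probes did not exceed.

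The number of detected members depended on where the limit was set. Under the laxer mark of a positive and significant spot, 15 and 13 of the 36 Hox genes passed in the dark-reared samples, against 17 and 13 in the control samples. On all 4 arrays 10 passed it, namely Hoxa3, Hoxa4, Hoxa6, Hoxa7, Hoxa13, Hoxb4, Hoxb6, Hoxc13, Hoxd9 and Hoxd12, and 16 passed it on none. With that mark the Hoxa cluster had 5 genes on all 4 arrays, Hoxb and Hoxd 2 each and Hoxc 1.

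Detection was then compared between the groups. Each dark-reared array had 4 Hox genes well above background and each control array had 6, a difference of -2. With equal counts within a group, any pair of arrays gives -2, also dark-reared 2 and control 2, which shared a slide. The genes behind equal counts differed. Dark-reared 1 had Hoxb6 and Hoxd12 where dark-reared 2 had Hoxa6 and Hoxa13, and control 1 had Hoxa7 where control 2 had Hoxd3. An exact two-sided permutation test gave p = 0.333, the smallest value that 2 against 2 samples allow. Under the laxer mark the numbers were 14.0 ± 1.41 in the dark-reared samples and 15.0 ± 2.83 in the control samples (SD, n = 2 each), with an exact p of 1.00. The share of all named genes well above background was 79.1% and 79.5% in dark-reared 1 and 2, against 81.3% and 75.8% in control 1 and 2. No difference in the number of detected Hox genes could be shown with 4 arrays.

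Of the 36 Hox genes, 5 were detected by the same probe in both samples of a group, the condition for entering the test of dark rearing, and 31 were not. Of the 5, 0 passed the limma test (Benjamini-Hochberg adjusted p under 0.05), as was the case for 0 of all 21638 genes tested (0%), and 270 genes (1.25%) had an unadjusted p under 0.05. Hoxa6, Hoxb6 and Hoxd12 entered the test through the control group alone, so a lower level in the dark-reared samples was built into their entry and their direction is only a description. Hoxa3 averaged -1.82 ± 0.19 in the dark-reared samples and -1.68 ± 0.05 in the control samples, a log2 difference of -0.14 (SE 0.17, limma adjusted p = 1.00). Hoxd9 averaged -3.76 ± 0.49 in the dark-reared samples and -3.69 ± 0.37 in the control samples, a log2 difference of -0.07 (SE 0.34, limma adjusted p = 1.00). For these, the pair detected throughout, the difference between groups was smaller than its standard error. The n is 2 in each group for these and the following means, and the errors are SDs.

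Hoxd12 had the largest difference of the 5. It averaged -4.79 ± 0.45 in the dark-reared samples and -2.84 ± 1.19 in the control samples, a log2 difference of -1.95 (SE 0.66). In limma its p was 0.0415 before adjustment and 1.00 after it. It was the only 1 of the 5 whose groups did not overlap, which 19.1% of all genes tested did, and the only 1 with non-overlapping groups that differed 2-fold or more. Such a gap was seen in 260 of all 21638 genes tested (1.2%), in 0.776% with the dark-reared samples lower and in 0.425% with them higher. With a filter on all 4 arrays it was seen in 80 of 19901 genes. It was thus commoner among genes that, like Hoxd12, were dim on at least 1 array, and 1.2% understates its share among them. Within the shared slide its log2 difference was -1.43, without control 1 it was -1.11, and after normexp background correction with outlying local backgrounds replaced it was -0.89. Hoxa6 averaged -4.04 ± 1.66 in the dark-reared samples and -3.04 ± 0.48 in the control samples, a log2 difference of -0.998 (SE 0.88, limma adjusted p = 1.00). Its value turned to 0.17 without dark-reared 1 and was -0.17 within the shared slide. Hoxb6 averaged -4.94 ± 1.14 in the dark-reared samples and -4.27 ± 0.22 in the control samples, a log2 difference of -0.67 (SE 0.60, limma adjusted p = 1.00). It turned to 0.13 without dark-reared 2 and was -1.64 within the shared slide. Of all genes tested, 51.8% were lower in the dark-reared samples. No median over the 5 is drawn on, since a lower level in the dark-reared samples was built into 3 of them. For Hoxa3 and Hoxd9, the pair kept by a filter on all 4 arrays, the median log2 difference was -0.10, against -0.01 over all 19901 genes kept by that filter.

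The genes that work with the Hox proteins gave another picture of detection. All 9 TALE cofactor genes were well above background on all 4 arrays. Pbx3 had log2 values of 2.79 and 2.37 in the dark-reared samples, against 1.71 and 2.98 in the control samples. Meis2 had 5.48 and 4.65 in the dark-reared samples, against 4.32 and 5.47 in the control samples. The groups overlapped in both genes, 0 of the 9 passed the limma test and 0 had an unadjusted p under 0.05. The median log2 difference of the 9 was 0.15, against -0.01 over all genes tested. These proteins also act outside Hox territory.

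The genes that keep the clusters silent or open were detected throughout as well. All 27 Polycomb genes measured were well above background on all 4 arrays, as were all 12 measured genes of the Trithorax and MLL complexes. Cbx6, a chromodomain subunit of a Polycomb complex, had log2 values of 5.10 and 4.75 in the dark-reared samples, against 4.68 and 5.12 in the control samples. The histone methyltransferase gene Kmt2c had 2.76 and 2.81 in the dark-reared samples, against 2.72 and 2.83 in the control samples, so the groups overlapped in both genes. The median log2 difference was 0.03 for either list, against -0.01 over all genes tested, and neither list had a gene that passed the limma test.

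The neighbours of the clusters on the chromosome were mostly detected. Of 14 measured genes that flank a cluster, 13 were well above background on all 4 arrays, and Evx1, the homeobox gene next to Hoxa13, was above it on none. Hibadh, an enzyme gene beyond Evx1, had log2 values of 2.68 and 2.68 in the dark-reared samples, against 2.78 and 2.72 in the control samples. Snx10, a sorting nexin gene on the other side of that cluster, had 2.09 and 2.55 in the dark-reared samples, against 2.21 and 2.25 in the control samples. Next to Hoxd13, the homeobox gene Evx2 was above background on all 4 arrays, with -2.81 and -3.67 in the dark-reared samples, against -2.62 and -2.96 in the control samples. Beyond it Atp5g3, a gene of the mitochondrial ATP synthase, had 6.04 and 5.97 in the dark-reared samples, against 6.13 and 5.97 in the control samples. The Hoxa cluster, with 7 of its 11 genes undetected, thus had detected genes on either side of it.

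Among other homeobox genes, those of the forebrain were detected and those of the hindbrain in part. All 24 measured forebrain and diencephalon homeobox genes were above background on at least 1 array and 19 on all 4. Otx2, which sets the forebrain and midbrain apart from the hindbrain in the embryo, had log2 values of -1.77 and -1.74 in the dark-reared samples, against -1.67 and -3.58 in the control samples. Its lowest value was in control 2, the array that was also lowest in choroid plexus markers. Which cells its signal came from was not tested. Gbx2, which acts in the anterior hindbrain and in the thalamus, had -4.39 and -1.19 in the dark-reared samples, against -2.79 and -2.28 in the control samples, and its lowest value was in dark-reared 1. Lhx5, a gene of the hypothalamus and other forebrain parts, was not well above background in dark-reared 1, with -7.29 and -1.07 in the dark-reared samples, against -0.985 and -2.49 in the control samples. Of 16 midbrain and hindbrain patterning genes, 6 were above background on all 4 arrays and 8 on none, among them En1, Pax2, Pax5 and Pax8. Of the 8 caudal and ParaHox genes, Gsx1 and Evx2 were above background on all 4 arrays, Gsx2 on 3 and Pdx1 on 2. The others, Cdx1, Cdx2, Cdx4 and Evx1, were above it on none. Cdx proteins switch on trunk Hox genes in the embryo. As a yardstick of genes rarely used in brain, 64.1% of 891 olfactory receptor genes were above background on none of the arrays and 12.5% on all 4.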

How the data were processed

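The authors deposited the scanner output of each array, whose processed signal is a background-subtracted, detrended intensity with no scaling between arrays. The file headers name Agilent Feature Extraction 10.7.3.1 as its source, and the submitters' processing notes name version 10.7. They also deposited log2 values per probe, used here as an alternative; no source used here gives their normalization. The array headers name mm9, on which no position is printed.

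Of 43379 spots that were not controls, those called outliers (79 to 103 per array) were left out, and the spots of each of 41174 probes were averaged. The 75th percentile of each array was subtracted on the log2 scale. RefSeq accessions named 26918 probes. A probe was kept if marked well above background in both samples of a group, the brightest standing for its gene (a probe with no name stood for itself). The test of dark rearing was limma's (3.58.1, R 4.3.3; two-sided, Benjamini-Hochberg over all 21638 genes, threshold 0.05), a procedure tested on simulated data. The 4 arrays limit the precision. Dark-reared 2 and control 2 shared a slide, and dark-reared 1 and control 1 each had another. All were scanned on 1 day. Gene lists came from general knowledge. The members and lists were chosen with earlier results of these data known. Genes named were the Hox genes that were detected or tested, the preset Hoxb1, Hoxa2, Hoxa5, Hoxd1, Hoxb13, Otx2, Gbx2, En2, Meis2, Tcf7l2 and Oxt, members of a list with the highest mean (up to 4) or the largest difference (up to 2), and undetected members. Some items are not reported here.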

Additional observations from a re-analysis of the deposited data

How the results depend on the processing

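Detection moved most with its definition. Of the 36 Hox genes, 2 were above background on all 4 arrays and 8 on at least 1. With the mark for positive and significant spots these numbers were 10 and 20, with the 95th percentile of the negative control spots as the limit 9 and 18, and with every probe of a gene required 0 and 4. Leaving out each array in turn gave 2 to 4 genes on all remaining arrays, with 4 without dark-reared 2, and 7 to 8 on at least 1.

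No gene, Hox or other, passed the adjusted threshold under any alternative (median or quantile normalization, normexp, deposited log2 values, other filters, outlier spots kept, every probe, the mean of probes, trended and robust eBayes, blocks, each array left out). The number of genes whose groups did not overlap and differed 2-fold or more, 260, was 152 with normexp, 23 with normexp after outlying local backgrounds were replaced, 817 with no filter and 80 with a filter on all 4 arrays. The first normexp fit failed on control 2 and put the median of all genes at -0.12; the replacement was added after seeing the data. With no filter 36 Hox genes were tested, with a median log2 difference of -0.22, and 33 were lower; of all genes 19384 of 32602 were then lower, with a median of -0.05. Most of these Hox genes were at the floor, which was highest in control 2.

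Single Hox genes changed sign in some settings. Hoxd9 was at 0.0029 with quantile normalization, 0.0041 with the deposited values, 0.28 without dark-reared 1, 0.19 without control 2 and 0.016 within the shared slide. Hoxa6 was at 0.17 without dark-reared 1, and Hoxb6 at 0.13 without dark-reared 2. Hoxd12 kept its sign, from -2.80 to -0.89. It entered the test through the control group alone, so a lower level in the dark-reared samples was built in and the kept sign is only a description. With each array left out, Hoxd9 ranged from -0.41 to 0.28, Hoxb6 from -1.48 to 0.13 and Hoxa6 from -2.17 to 0.17. The median of the 5 Hox genes, -0.67 and lowered by how 3 of them entered the test, ranged from -0.83 to -0.0018 with each array left out, the lone sample being assumed to vary like the other group. In the other settings the cause of a change was not tested.

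Whether the replicate numbers pair the samples could not be settled with 2 samples in each group. The deposited log2 values had the same median in same-numbered samples, 6.838058 for number 1 and 6.838332 for number 2. Same-numbered samples deviated from their group means with a correlation of -0.16 across 21638 genes, which are not independent replicates. With the replicate number as a block, 0 genes passed, 277 had an unadjusted p under 0.05, and the Hox median was -0.67. With crossed numbers, added after seeing the data, 0 passed and 436 had an unadjusted p under 0.05. The difference of -2 in detected Hox genes was the same within replicate pairs and without each array in turn. Both arrays of a group had the same count, so no other outcome was possible and this is no check of the difference. An alternative by the gene name column was not run, since the files used hold no such column. Signal over background limits any statement on the 28 undetected Hox genes.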

Other observations

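Pdx1, the ParaHox gene of the pancreas and duodenum, was not well above background on either dark-reared array and was above it on both control arrays. Its log2 values were -5.70 and -7.19 in the dark-reared samples, against -4.94 and -3.74 in the control samples. The dimmest signal marked well above background, -5.15 and -5.05 on dark-reared 1 and 2, was set in place of the dark-reared values. The control mean was then 1.70-fold higher, with control 1 (-4.94) close to these stand-ins and control 2 (-3.74) further off. In limma its p was 0.0394 before adjustment and 1.00 after it. Pdx1 entered the test through the control group alone. A lower level in the dark-reared samples was thus built into its entry, and its direction and fold are only a description.

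Some genes tied to the hindbrain and midbrain were above background on every array while most Hox genes were not. En2, a homeobox gene of the midbrain and cerebellum, had log2 values of -2.09 and -2.77 in the dark-reared samples, against -1.80 and -2.45 in the control samples. Barhl1, a homeobox gene of cerebellar granule cells and of the mammillary hypothalamus, had -0.04 and -0.16 in the dark-reared samples, against -0.05 and -0.08 in the control samples. Fev, the transcription factor gene of serotonergic neurons, had -3.64 and -2.88 in the dark-reared samples, against -2.88 and -2.59 in the control samples, while Slc6a4, the serotonin transporter gene, was above background on no array. En2, Barhl1 and Fev did not pass the limma test, and Slc6a4 did not enter it.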
